A study of Homo sapiens with 2 samples.

Results

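The translation initiation factors described here are the 48 genes whose symbol in the deposited expression table for DMSO is a factor name from EIF1 to EIF6, including the eIF4E-binding proteins and leaving out the EIF2AK kinases, EIF1AY and pseudogenes. They were taken by name from that table, which holds 13924 of the 61806 genes counted, and their ratio between the libraries played no part in the choice. Expression did, since EIF4E3, EIF4E1B and EIF4EBP3, with at most 7 reads in a library, are not in that table. HEL is an established human erythroleukemia cell line, and both samples carry the genotype label WT. HEL cells received L1, a derivative of 3,3′-diindolylmethane, at 1 µM for 24 h, or 0.5% DMSO for 24 h as the vehicle. RNA with poly(A) tails was sequenced in 1 library for each treatment, and the comparison asks which initiation factor mRNAs stood at another level in the L1 library than in the DMSO library.

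Initiation is the stage of protein synthesis at which the ribosome is brought to the start codon of an mRNA. eIF2 carries the initiator tRNA to the small ribosomal subunit, eIF2B recharges eIF2 with GTP, and eIF3 holds the small subunit and its partners together. The cap-binding protein eIF4E, the scaffold eIF4G and the helicase eIF4A recruit the mRNA, eIF1 and eIF1A keep the scanning ribosome selective, and eIF5 and eIF5B complete the joining of the large subunit. Many mRNAs of the translation machinery begin with a C followed by an unbroken run of pyrimidines, the terminal oligopyrimidine start, through which mTOR signalling and the RNA-binding protein LARP1 control their translation and stability.

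The first bases of 40 of the 48 mRNAs could be read from the RefSeq promoter table (GRCh38.p14), which has no entry for EIF2S2, EIF3A, EIF3CL, EIF3E, EIF3G, EIF3H, EIF3L and EIF4EBP1. Of these 40, 10 begin at a C with a run of at least 5 pyrimidines. These 10 are shown first because their mRNAs stood mostly below DMSO in the L1 library. A start of EIF3B and a start of EIF5 follow, and these genes were picked because their levels were higher in L1. They do not stand for the 30 members without a run. Of those 30, 16 were also below 0, among them EIF4A1 at -0.59 and EIF4EBP2 at -0.41. Each stretch holds 10 bases before a RefSeq start and 20 from the start on, in the direction of transcription, and the capitals mark the pyrimidine run.
EIF2S3B, chr12:10505880-10505909, plus strand: gactttcttcCTCTTTTggcaacatggcgg
EIF2S3, chrX:24054946-24054975, plus strand: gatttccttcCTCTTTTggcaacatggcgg
EIF4B, chr12:53006446-53006475, plus strand: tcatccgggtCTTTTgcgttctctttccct
EIF2D, chr1:206612446-206612475, minus strand: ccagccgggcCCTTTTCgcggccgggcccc
EIF3D, chr22:36529147-36529176, minus strand: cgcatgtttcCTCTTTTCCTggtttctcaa
EIF3F, chr11:7987327-7987356, plus strand: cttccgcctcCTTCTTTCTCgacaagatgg
EIF3M, chr11:32583821-32583850, plus strand: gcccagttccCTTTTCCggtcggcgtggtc
EIF4A2, chr3:186783567-186783596, plus strand: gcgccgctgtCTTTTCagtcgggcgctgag
EIF2A, chr3:150546777-150546806, plus strand: cgagcggtttCTCTTTCCgggacaacatgg
EIF3K, chr19:38619178-38619207, plus strand: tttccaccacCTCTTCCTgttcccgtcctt
EIF3B, chr7:2354817-2354846, plus strand: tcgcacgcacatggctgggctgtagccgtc
EIF5, chr14:103334227-103334256, plus strand: ggcgttgttcagtcagagcgagaacattcc

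The libraries held 32556872 counted reads for DMSO and 27135647 for L1. Counts were scaled by the TMM method over all genes, which set the DMSO library at 1.16 times the size of the L1 library. Values are the log2 ratio of L1 over DMSO with an exact 95% Clopper-Pearson interval from the split of a gene's reads between the libraries. These intervals cover counting error only, and with 1 library per condition no test was possible, the spread between cultures was not measured and no difference has a replicate check. The label of the cell line was checked on 12 markers of erythroid and megakaryocytic cells, all counted, at 19 to 40168 reads in DMSO. Of 8 markers of T cells, B cells, epithelium and fibroblasts, 6 had no read in either library, and COL1A1 and COL1A2 had 5 and 2 reads, in L1 only. In bulk RNA, fewer cells with a transcript and less of it per cell cannot be told apart.

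As a group, the initiation factor mRNAs stood at nearly the same level in both libraries. They took 1.18% of all counted reads in each, 384698 reads in DMSO and 319034 in L1, and their summed log2 ratio was -0.06. No member was 2-fold apart: 0 of 48 were at least 2-fold higher in L1, where 7.12% of the 18123 genes with at least 10 reads in a library were, and 0 of 48 were at least 2-fold lower, where 4.83% were. The members had 213 to 34044 reads in DMSO, and among the 6479 genes with at least 1000 reads in the higher library 2.04% passed 2-fold upward and 2.08% downward. In the FPKM table from which the members were taken, the shares were 2.85% and 2.55%. At 1.5-fold, EIF5 was higher and EIF4A1 was lower, 1 member each way, beside 13.8% of all genes higher and 11.4% lower. The same shares were 7.63% and 8.16% among genes with an FPKM value and 5.19% and 6.22% among those with at least 1000 reads. EIF5 was also the 1 member whose whole counting interval lay past 1.5-fold, beside 5.7% of all genes higher and 4.4% lower, while that of EIF4A1 reached across the line.

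The median over the 48 members was -0.05, beside -0.0040 over all genes kept and -0.02 over the genes with an FPKM value. Their middle range, from the lower to the upper quartile, was -0.21 to 0.15, against -0.28 to 0.30 over all genes kept. It was -0.26 to 0.20 over the genes with an FPKM value. Over the genes with at least 1000 reads it was -0.22 to 0.15, nearly that of the members. There were 31 members below 0 and 17 above, but the number below 0 depended on the scaling, with 24 under total counts, 26 under upper quartile scaling and 33 under DESeq2 size factors. Above 0 stood 35.4% of the members, beside 49.6% of all genes kept. The share was 47.3% for genes with an FPKM value and 45.8% for those with at least 1000 reads. The counting interval lay above 0 for 14 members, below 0 for 23 and across 0 for 11. These intervals were not counted over all genes, so the numbers describe the members only.

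**Figure D1:**
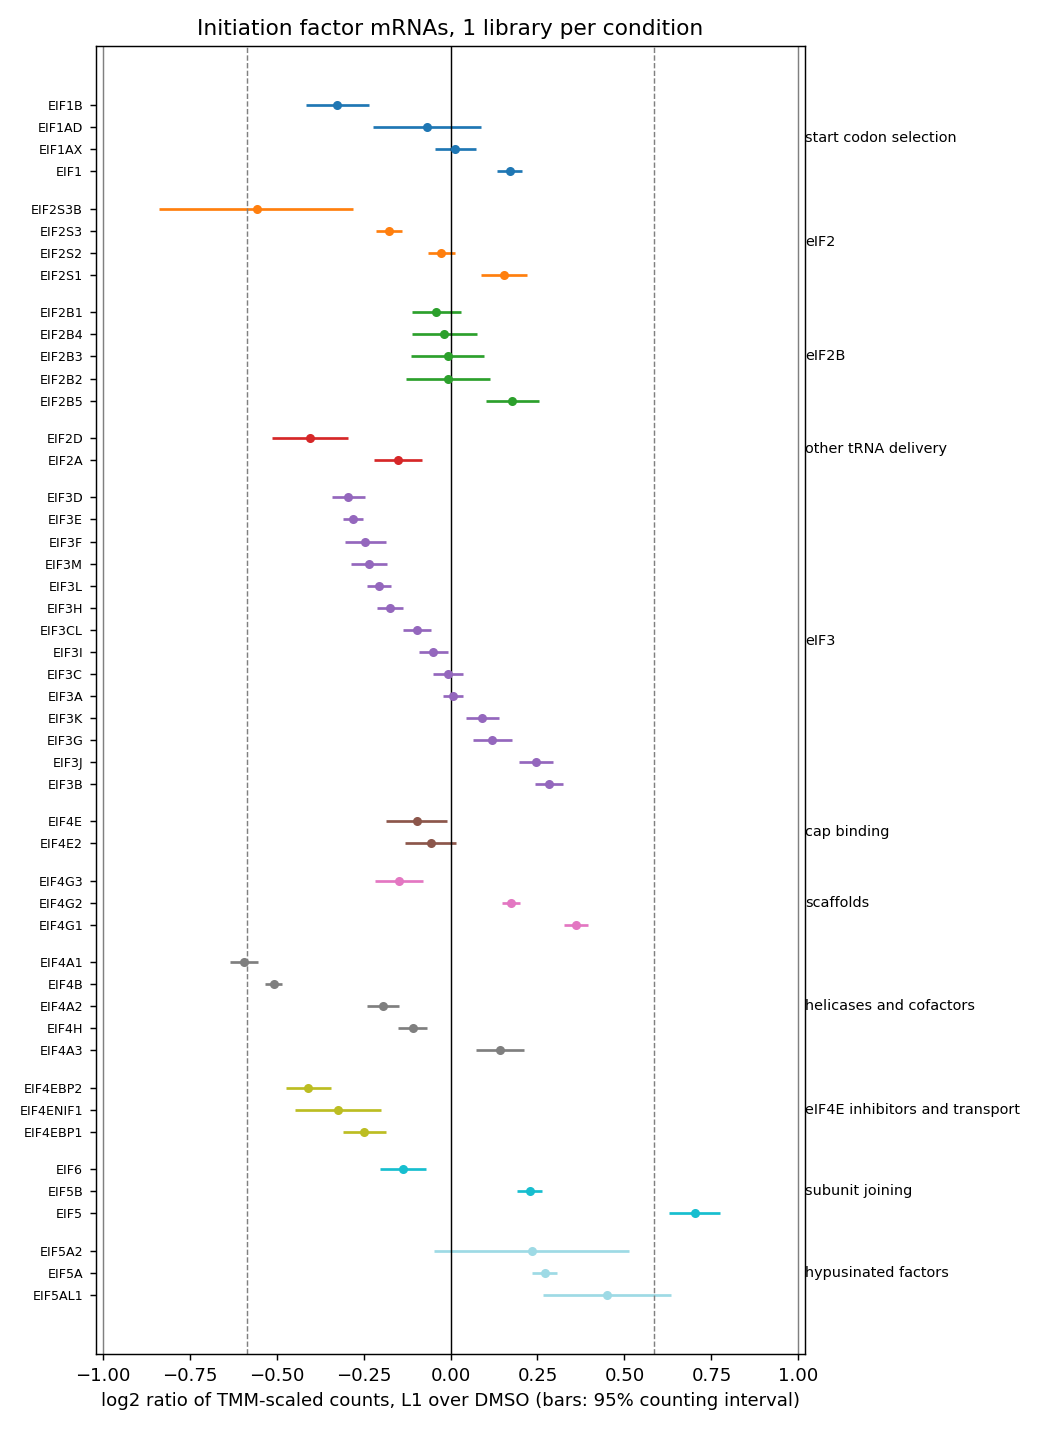
Log2 ratio of L1 over DMSO for the 48 initiation factor genes, on the x axis, grouped by role; points are TMM-scaled counts of 1 library per condition and bars the 95% counting interval. The solid grey lines mark 2-fold and the dashed lines 1.5-fold: EIF5 lies past the right dashed line at 0.70, EIF4A1 past the left one at -0.59, and all other points lie between.

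**Figure D2:**
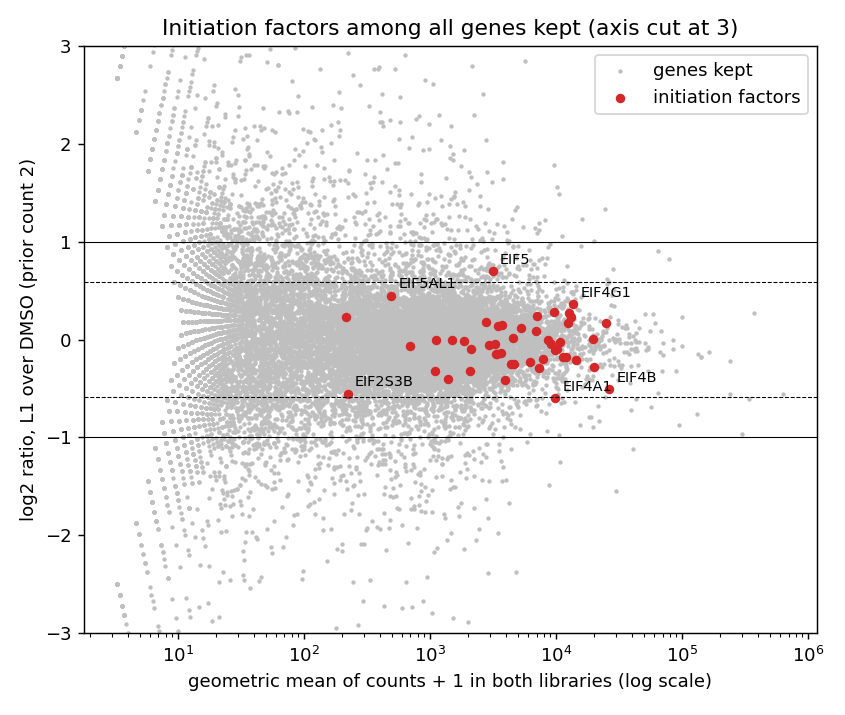
Log2 ratio of L1 over DMSO with a prior count of 2 (y axis, cut at 3 in both directions) against the geometric mean of the reads plus 1 in both libraries (x axis, log scale) for the 18123 genes kept, in grey, and the 48 initiation factors, in red. The initiation factors lie at the well-counted side of the plot and within the solid lines at 2-fold.

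The largest ratio among the initiation factors belonged to EIF5, on chromosome 14 at 103333544 to 103345025 (GRCh38, GENCODE). EIF5 stimulates GTP hydrolysis by eIF2 once the start codon is found. It had 2649 reads in DMSO and 3716 in L1, for log2 0.70 (95% interval 0.63 to 0.77), or 1.63-fold. The deposited FPKM values of EIF5 were 10.0 and 16.3. Only 2.31% of its 31-base words occur in transcripts of another gene, and adding the reads of its pseudogenes left the ratio at 0.70. Its relatives in subunit joining were less far from DMSO. EIF5B, the GTPase that joins the large subunit, had 12980 reads in DMSO and 13109 in L1, or a log2 ratio of 0.23 (0.19 to 0.26). EIF6, which keeps the large subunit from joining too early, had 4144 and 3252 reads, a log2 ratio of -0.14 (-0.20 to -0.07).

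The lowest ratio belonged to EIF4A1, the main RNA helicase of the cap-binding complex, on chromosome 17 at 7572706 to 7579005, and it depended on how reads were divided at that locus. EIF4A1 had 12975 reads in DMSO and 7416 in L1, which gave a log2 ratio of -0.59 (-0.64 to -0.55), and its FPKM values were 78.5 and 52.0. GENCODE also annotates a readthrough gene, SENP3-EIF4A1, which runs from the SUMO protease gene SENP3 just before EIF4A1 into EIF4A1 on the same strand. This readthrough gene stood on the other side of 0, with 3304 reads in DMSO and 7267 in L1, for a log2 ratio of 1.35 (1.29 to 1.41).

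The readthrough gene held 20.3% (19.7 to 20.9, exact binomial interval) of the reads given to EIF4A1 and SENP3-EIF4A1 together in DMSO and 49.5% (48.7 to 50.3) in L1. Summed, the 2 genes had 16279 reads in DMSO and 14683 in L1, or a log2 ratio of 0.06 (0.03 to 0.10), so the sum lay near 0 while its parts lay far apart. SENP3 itself was lower, at 2582 and 822 reads, a log2 ratio of -1.44 (-1.55 to -1.32), and EIF4A1, SENP3-EIF4A1 and SENP3 together came to -0.07 (-0.10 to -0.04). EIF4A1 shares 26.6% of its 31-base words with transcripts of SENP3-EIF4A1 and 36.3% with those of AC016876.2, a gene on the same strand with 654 and 409 reads. How the reads in shared exons were assigned is not given in the sources used here, and whether more readthrough RNA or another assignment of reads lies behind the shift was not tested.

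**Figure D3:**
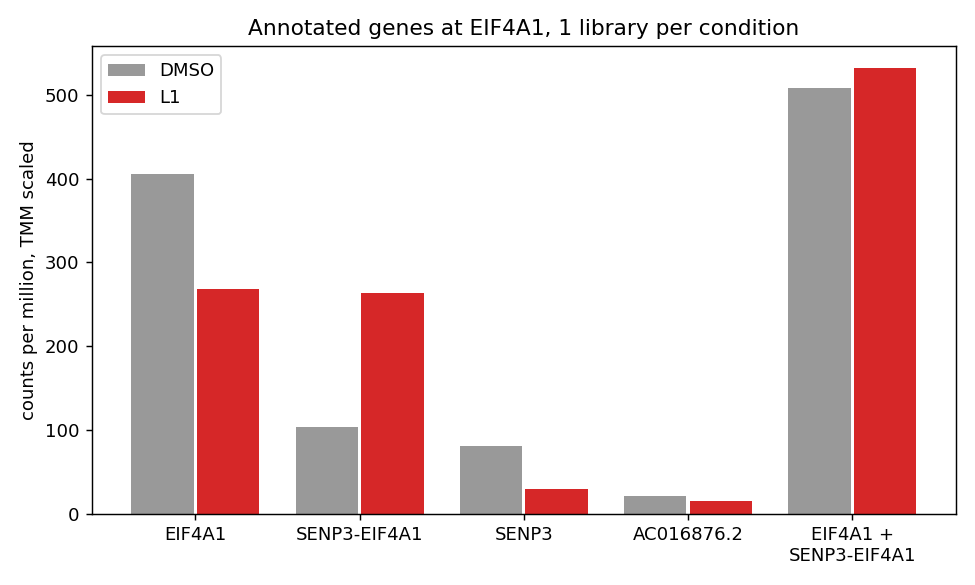
TMM-scaled CPM (y axis) for EIF4A1, the readthrough gene SENP3-EIF4A1, SENP3, AC016876.2 and the sum of EIF4A1 and SENP3-EIF4A1, with DMSO in grey and L1 in red, 1 library each. The L1 bar is the lower one for EIF4A1 and SENP3 and the higher one for SENP3-EIF4A1, while the bars of the sum differ by a log2 ratio of 0.06.

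The other helicase genes and cofactors were mostly lower in L1. EIF4B, which stimulates the helicase eIF4A, is the most strongly counted initiation factor in DMSO, and it had 34044 reads there and 20651 in L1. Its log2 ratio was -0.51 (-0.53 to -0.48), and its FPKM values were 178 and 125. Unlike at EIF4A1, the reads of related sequences did not offset this difference: 26.8% of the 31-base words of EIF4B are shared, mainly with its processed pseudogenes, but EIF4BP7 (594 and 353 reads), EIF4BP3 (604 and 315) and EIF4BP6 (346 and 184) were lower too, and the sum over EIF4B and its 9 pseudogenes was again -0.51.

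EIF4A2, the paralogous helicase, had 9065 reads in DMSO and 6832 in L1, which gave a log2 ratio of -0.19 (-0.24 to -0.15). EIF4H, a cofactor related to EIF4B, stood at -0.11 (-0.15 to -0.07). EIF4A3, which belongs to the exon junction complex rather than to the cap complex, was the 1 gene of these 5 above 0, with 3539 and 3371 reads and a log2 ratio of 0.14 (0.07 to 0.21). The median of the 5 was -0.19, and it was -0.11 when each gene was summed with the genes that overlap it on the same strand.

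At the cap, the scaffold EIF4G1 was higher, while EIF4EBP1, EIF4EBP2 and EIF4ENIF1, whose products inhibit or carry eIF4E, were lower. EIF4G1 had 12931 reads in DMSO and 14328 in L1, for a log2 ratio of 0.36 (0.33 to 0.40), or FPKM values of 46.5 and 59.7. EIF4G2, a scaffold that lacks the eIF4E-binding site, had 25321 and 24646 reads and a log2 ratio of 0.17 (0.15 to 0.20). EIF4G3 lay on the other side of 0, with 3827 and 2981 reads and -0.15 (-0.22 to -0.08).

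The cap-binding protein itself was little different. EIF4E had 2348 reads in DMSO and 1894 in L1, or a log2 ratio of -0.10 (-0.19 to -0.01). EIF4E2, a cap-binding relative that represses translation, stood at -0.06 (-0.13 to 0.02). Other cap-binding and eIF4E-binding family members lie outside the rule and were nearly silent, with 7 and 4 reads for EIF4E3, 1 and 1 for EIF4EBP3 and none in either library for EIF4E1B. The eIF4E-binding proteins, which block the contact of eIF4E with eIF4G when mTOR is inactive, were both lower. EIF4EBP1 had 5122 reads in DMSO and 3722 in L1, which gave a log2 ratio of -0.25 (-0.31 to -0.19). EIF4EBP2 had 4877 and 3169 reads, a log2 ratio of -0.41 (-0.47 to -0.34). EIF4ENIF1, which carries eIF4E into the nucleus, had 1324 and 913 reads and stood at -0.32 (-0.45 to -0.20), so all 3 genes of this group were below 0, with a median of -0.32.

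The subunits of eIF2 lay on both sides of 0. EIF2S1 encodes the alpha subunit, whose phosphorylation slows initiation under stress, and it had 3827 reads in DMSO and 3674 in L1, for a log2 ratio of 0.15 (0.09 to 0.22). EIF2S2, the beta subunit, stood at -0.03 (-0.06 to 0.01). EIF2S3, the gamma subunit, had 13095 and 9993 reads and a log2 ratio of -0.18 (-0.21 to -0.14). EIF2S3B, a copy of EIF2S3 on chromosome 12, had only 290 and 170 reads and the lowest ratio of the 4, -0.56 (-0.84 to -0.28). It shares 36.5% of its 31-base words with EIF2S3, and the sum of both genes stood at -0.18 (-0.22 to -0.15), as EIF2S3 alone did.

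The exchange factor eIF2B was the most even of the larger groups. EIF2B1, EIF2B2, EIF2B3 and EIF2B4 lay between -0.04 and -0.0067, each with an interval across 0. EIF2B1, the lowest, had 3594 reads in DMSO and 3013 in L1. EIF2B5, the catalytic subunit, was the exception, with 2809 and 2740 reads and a log2 ratio of 0.18 (0.10 to 0.25). An antisense gene that overlaps EIF2B4, AC074117.1, had 91 reads in DMSO and 412 in L1. Since the strand setting of the counting is not given in the sources used here, reads of EIF2B4 and of its antisense partner cannot be told apart. The same limit holds for all 22 members whose exons overlap a counted gene on the opposite strand. Among such partners, SFI1 opposite EIF4ENIF1 had 1073 and 690 reads. SERP1 opposite EIF2A had 8834 and 7344, and CTR9 opposite EIF4G2 had 11949 and 11071. EIF2A and EIF2D can deliver initiator tRNA without eIF2, and both were lower, EIF2A at -0.15 (-0.22 to -0.08) and EIF2D, with 1731 and 1128 reads, at -0.40 (-0.51 to -0.30).

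Among the factors that guard start codon selection, EIF1 and its paralog EIF1B lay on opposite sides of 0. EIF1 had 12665 reads in DMSO and 12295 in L1, or a log2 ratio of 0.17 (0.13 to 0.21). EIF1B had 2479 and 1707 reads, a log2 ratio of -0.33 (-0.41 to -0.24). EIF1AX stood at 0.01 (-0.05 to 0.07). EIF1AD, which is put in this group by its symbol and not by a known part in start codon selection, stood at -0.07 (-0.22 to 0.09). EIF1AD overlaps BANF1 on the opposite strand, a much more strongly counted gene with 5234 reads in DMSO and 1660 in L1.

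The 14 genes of eIF3, the largest initiation factor, spread from -0.29 to 0.28 with a median of -0.07, and 5 were above 0 and 9 below. At the upper end stood EIF3B, a core subunit, with 9389 reads in DMSO and 9852 in L1 and a log2 ratio of 0.28 (0.24 to 0.32), followed by the loosely bound EIF3J at 0.25, EIF3G at 0.12 and EIF3K at 0.09. EIF3A, the largest core subunit, stood at 0.0074 (-0.02 to 0.04) with 20934 and 18153 reads. At the lower end stood EIF3D, a subunit that can itself contact the cap, with 8751 and 6159 reads and a log2 ratio of -0.29 (-0.34 to -0.25).

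Next to EIF3D lay EIF3E at -0.28, EIF3F at -0.24, EIF3M at -0.23, EIF3L at -0.21 and EIF3H at -0.17. The counting intervals of neighbours in this row overlapped, while those of EIF3D and EIF3H did not. EIF3C and EIF3CL are near-identical genes on chromosome 16, and 98.5% of the 31-base words of EIF3CL occur elsewhere. Their reads cannot be assigned with certainty, and their sum had 20642 reads in DMSO and 17124 in L1, which gave a log2 ratio of -0.06 (-0.09 to -0.03).

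Levels between genes can be compared only per length, and the length behind the deposited FPKM values set the order of the eIF3 subunits. For 36 of the 48 members, the length implied by counts and FPKM was within 10% of the merged exon length in GENCODE. For EIF3E the implied length was 37511 bases, 6.25 times the merged exons, and for EIF3I it was 9463 bases, 5.49 times. By deposited FPKM, EIF3E was thus among the lowest eIF3 subunits, at 19.6 in DMSO and 16.1 in L1, while per kilobase of its principal transcript it was the highest, at 476 and 392 CPM on the TMM scale. EIF3I had FPKM values of 33.1 and 32.0, and 215 and 208 CPM per kilobase. The length is the same in both libraries and drops out of the ratio between them. For all 48 members the ratio from FPKM differed from that of the TMM-scaled counts by less than 0.01 on the log2 scale. The FPKM values thus followed nearly the same library scaling and are no separate check on it.

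**Figure D4:**
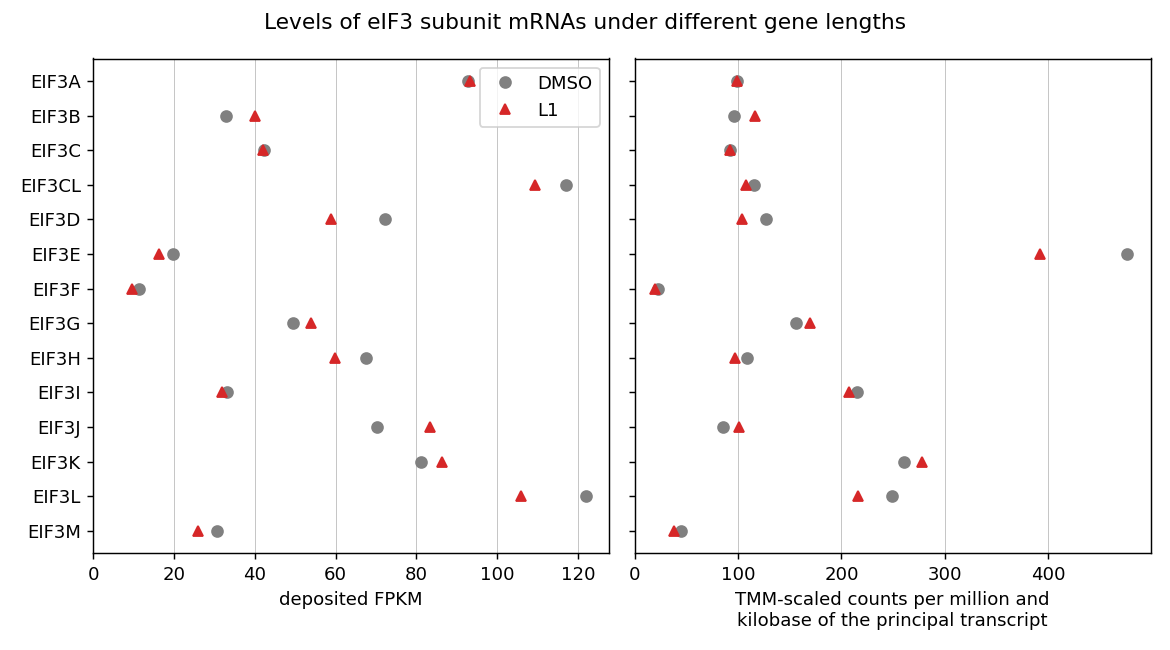
Levels of the 14 eIF3 genes (rows) in DMSO (grey circles) and L1 (red triangles), as deposited FPKM (left) and as TMM-scaled CPM per kilobase of the principal GENCODE transcript (right), 1 library per condition. EIF3E lies at 19.6 and 16.1 on the left scale and at 476 and 392 on the right one.

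The genes of eIF5A, a factor that carries the amino acid hypusine and helps ribosomes through difficult peptide bonds, all lay above 0, with a median of 0.27. EIF5A had 12327 reads in DMSO and 12831 in L1, for a log2 ratio of 0.27 (0.24 to 0.31), and FPKM values of 144 and 174. EIF5AL1, an intronless copy, had 453 and 534 reads and a log2 ratio of 0.45 (0.27 to 0.63), the highest of the 3. EIF5A2 had 213 and 216 reads, too few to place it apart from 0, at 0.23 (-0.05 to 0.51). EIF5A and EIF5AL1 share sequence, and their summed reads stood at 0.28 (0.24 to 0.31).

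The first bases of the mRNAs set apart part of the lower genes, in a division made after the ratios had been seen and given as a description only. The 10 members that begin with a pyrimidine run had a median log2 ratio of -0.24, from -0.56 for EIF2S3B to 0.09 for EIF3K, and 9 of the 10 were below 0. The other 30 members with a RefSeq start had a median of -0.0073, with 16 below 0. With total counts the medians were -0.19 and 0.04, and with DESeq2 size factors -0.27 and -0.04. A scaling shifts the ratios of all genes alike, so the distance between the medians could not change and is no check on it. EIF2S3 and EIF2S3B share most of the printed letters and are not separate examples, and without EIF2S3B the median was -0.23.

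Such starts were found at 25% of the 40 members, beside 7.58% of the 9978 genes with a deposited FPKM value and a RefSeq start. A pyrimidine run did not go with lower levels everywhere. Over all genes with an FPKM value the median was -0.07 with a run and -0.02 without, and 59.1% of those with a run and 52.2% of those without were below 0. Cytosolic ribosomal protein genes are the best known carriers of such starts, and 63 were taken by symbol. The 44 with a run had a median of -0.0019 and the 19 without had one of -0.06, so a run did not go with a lower median here. Those 19 spread from -1.54 to 0.53, which is wide beside the gap between the medians. The 63 include paralogs such as RPL26L1, the highest of those without a run at 0.53. A run was read at RefSeq starts only, so a gene whose pyrimidine start is not listed there counts as without. EIF3B, EIF4G1 and EIF5, all higher in L1, begin at none of their RefSeq starts with such a run, and neither does EIF4A1. EIF4EBP2 at -0.41, EIF1B at -0.33 and EIF4ENIF1 at -0.32 were lower in L1 and have no such run either.

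**Figure D5:**
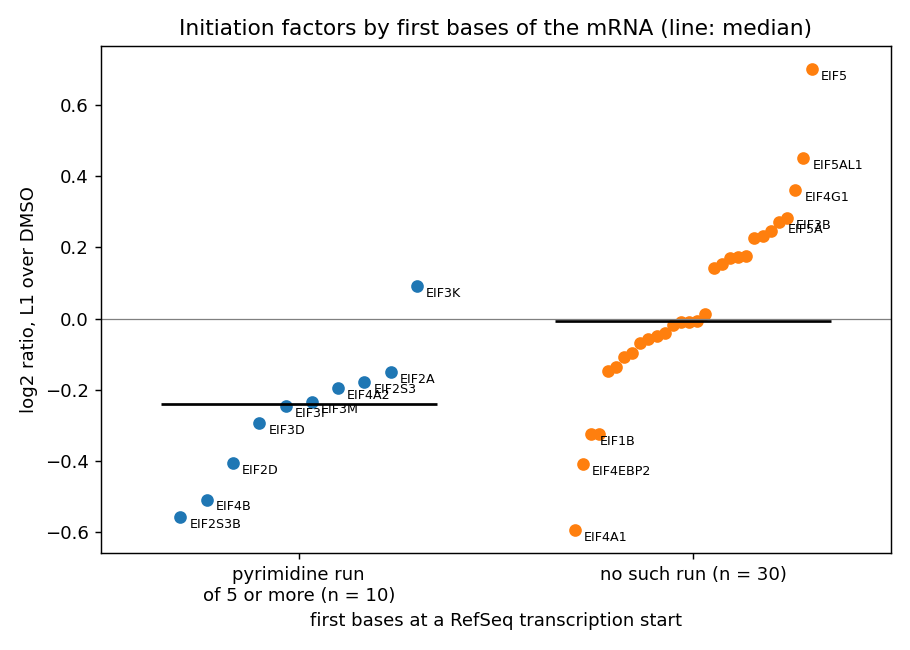
Log2 ratio of L1 over DMSO (y axis) for the 40 initiation factor genes with a RefSeq start, divided by whether a start begins with C and at least 5 pyrimidines in all; points are genes, from 1 library per condition, and lines are medians. The 10 genes with a run lie around -0.24, with EIF3K alone above 0, and the 30 others lie around -0.0073.

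Motifs were sought on both strands from 250 bases before to 50 bases after the RefSeq starts. TGATGNAA, a sequence bound by ATF4 and its partners, was found at 0 of 40 members and at 4.46% of all 27305 genes with a promoter. The E-box CACGTG was found at 10 members, or 25%, beside 8.77% of all genes, and CCGGAAGT, the core bound by ETS factors, at 9 members, or 22.5%, beside 4.95%. Among genes with an FPKM value the shares were 2.68% for TGATGNAA, 12.4% for CACGTG and 10.4% for CCGGAAGT. The median log2 ratio was -0.05 for members with CACGTG and -0.05 for those without, and -0.05 with CCGGAAGT and -0.02 without. A match describes letters only and says nothing about binding.

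Outside the initiation factors, 43 genes that control or follow initiation were read from lists, with a median of -0.08. Of the 43, 3 were at least 2-fold higher in L1, beside 7.12% of all genes kept, and 2 were at least 2-fold lower, beside 4.83%. At 1.5-fold the numbers were 4, beside 13.8%, and 3, beside 11.4%. All 43 have an FPKM value, and among genes with such a value the shares were 2.85% and 2.55% at 2-fold. At 1.5-fold these shares were 7.63% and 8.16%. Among genes with at least 1000 reads they were 2.04% and 2.08% at 2-fold, and 5.19% and 6.22% at 1.5-fold. These counts are too small to set the listed genes apart from other genes, and the order depended on which genes they were set beside. LARP1, which binds pyrimidine-run mRNAs, had 6817 reads in DMSO and 16438 in L1, or a log2 ratio of 1.48 (1.44 to 1.52). DENR, which helps recycle ribosomes and reinitiate, had 6028 and 2202 reads, a log2 ratio of -1.24 (-1.31 to -1.17). No exon of another gene overlaps LARP1 or DENR on the same strand in GENCODE.

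The phosphatase subunits that act on eIF2 alpha lay on opposite sides. PPP1R15A, the stress-induced subunit, had 3952 reads in DMSO and 5403 in L1, which gave a log2 ratio of 0.66 (0.60 to 0.72). PPP1R15B, the constitutive subunit, had 4520 and 1702 reads, a log2 ratio of -1.20 (-1.28 to -1.12). The eIF2 alpha kinase PERK, encoded by EIF2AK3, had 720 and 665 reads and an interval across 0, with a log2 ratio of 0.10 (-0.06 to 0.25). The other eIF2 alpha kinases were slightly lower, EIF2AK1 at -0.11 (-0.16 to -0.06), EIF2AK2 at -0.33 (-0.40 to -0.27) and EIF2AK4 at -0.16 (-0.24 to -0.09).

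Downstream of eIF2 alpha, ATF4, whose translation rises when eIF2 is phosphorylated, stood at -0.13 (-0.19 to -0.06) with 4829 and 3820 reads. DDIT3, a target of ATF4, had 106 and 284 reads, a log2 ratio of 1.63 (1.31 to 1.97). TRIB3, another target of ATF4, had 935 and 825 reads and stood at 0.03 (-0.10 to 0.17). DDIT4, an inhibitor of mTOR signalling, had 178 and 355 reads, a log2 ratio of 1.21 (0.95 to 1.48). mRNA levels alone do not show the phosphorylation of eIF2 alpha, which was not measured in these files.

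DHPS, the enzyme that begins hypusine synthesis on eIF5A, had 710 reads in DMSO and 377 in L1, for a log2 ratio of -0.70 (-0.88 to -0.52), although the eIF5A genes themselves lay above 0. This value rested on the division of reads as well, since summed with an overlapping gene on the same strand, ENSG00000285589, DHPS had 2233 and 1824 reads and stood at -0.08 (-0.17 to 0.01). PABPC1, the poly(A)-binding partner of eIF4G, had 45255 and 38907 reads and stood at -0.0050 (-0.02 to 0.01). The 9 elongation and termination factors, the step after initiation, had a median of -0.08 and none past 1.5-fold.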

How the data were processed

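The authors deposited raw read counts per Ensembl gene and FPKM values for part of the genes. The submitters' processing notes name fastp 2.0, HISAT2 2.1.0, StringTie and hg38 without their roles. The counting program, annotation and strand setting are not given in the sources used here. TMM factors came from edgeR 4.0.16 (R 4.3.3) over the whole table. Genes were kept from 10 counts in either library on. A prior count of 2 went into ratios across genes, and none into those of single genes. Totals were 32556872 and 27135647 counts, and the median width of a member's 95% interval was 0.11 on the log2 scale. No test was run, since each condition has 1 library. All 48 members were found in GENCODE release 29 (GRCh38), the source of exons, lengths and shared 31-base words. Starts were taken from RefSeq. Full values are given for the highest and lowest member of each role group of 3 or more, members past 1.5-fold and EIF2S1, EIF4E, EIF4G1, EIF4A1, EIF4A2, EIF4EBP1 and EIF5A, and, of the genes outside the rule, for those past 1.5-fold, EIF2AK3, ATF4 and PABPC1. Other values named were chosen after they were seen. The members and lists were chosen with earlier results of these data known. Other scalings, prior counts, filters, thresholds, FPKM and sums with overlapping genes, pseudogenes and copies were tried. The scripts were tested on simulated data. Python 3.11.15 with numpy 2.4.6, pandas 2.3.3, scipy 1.17.1 and matplotlib 3.10.9 was used.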

Additional observations from a re-analysis of the deposited data

How the results depend on the processing

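The median of the initiation factors stayed between -0.08 and -0.0038 under the alternatives run. The lower member at 1.5-fold, EIF4A1, was no longer past it (0 members) under total counts at -0.54, upper quartile scaling at -0.56 or log2(FPKM + 1) at -0.5847. The line lies 0.5850 from 0, so these were small shifts, and with log2(FPKM + 0.1) EIF4A1 stayed past it at -0.593. It was also no longer past the line in sums with pseudogenes, at -0.54, and in sums with genes overlapping on the same strand. Without the 15 members that share over 10% of their words the number was also 0, in a set chosen after seeing the data. EIF4A1 is itself among those 15, so that number says nothing about its ratio. Summed with overlapping genes, EIF4A1 reversed to 0.051. The counts past 2-fold, 0 each way, became 1 higher and 1 lower at a 1.5-fold threshold and 1 higher with the whole interval past 1.5-fold. The medians for start codon selection (-0.06 to 0.02) and eIF2B (-0.04 to 0.04) changed sign with the scaling, and the medians of the other role groups did not, though that of the helicases and cofactors went from -0.19 to -0.11 with overlapping genes summed. Of the 48 ratios, 7 changed sign under total counts, 5 under upper quartile scaling and 2 under DESeq2 size factors. No paired analysis was possible because DMSO and L1 have only 1 library each, and no replicate could be left out. With 1 library per condition the intervals show reading depth, not the spread between cultures.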
